A study of Mus musculus with 27 samples.

Results

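Among the 8 colon tissue libraries of a study of alcohol in the mouse gut, 3 carried abundant transcripts of Hoxb13 and 5 carried almost none. Those 3 libraries, called Hoxb13-positive colon tissue here, were compared with the 5 others. The classes were chosen by the measured level of Hoxb13 itself: a library was put in the first class when it exceeded 5 CPM, a gene's count scaled to its library's total. Whole tissue came from C57BL/6 mice, an inbred laboratory strain, which had 15% ethanol (EtOH) or water for 8 weeks. The Hoxb13-positive class held 2 ethanol libraries (EtOH 1 and EtOH 2) and 1 water control (Control 1). The other class held 2 ethanol libraries (EtOH 3 and EtOH 4) and 3 water controls (Control 2, Control 3 and Control 4). The series has 27 libraries in all, the rest being colon organoids, jejunum tissue and jejunum organoids. The labels give neither sex nor age, and they do not say from where along the colon a piece was taken.

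Hox genes encode transcription factors that lie in 4 clusters (A to D) and are used along the body axis in the order in which they lie. The group with the highest numbers, to which Hoxb13 belongs, is used in the tail end of the embryo and in the hindgut that forms the last stretch of the large bowel. The colon is not uniform along its length: its beginning recovers bile acids and handles many plant and microbial compounds, whereas its end recovers sodium and holds the enteroendocrine cells that make insulin-like peptide 5. The wall also contains smooth muscle, connective tissue, enteric nerves and immune cells besides the epithelium.

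Hoxb13 chose the classes, so its values are a description and carry no test. It was at 103.8, 607 and 137.6 CPM in EtOH 1, EtOH 2 and Control 1. Among the other libraries the highest value was 0.21 CPM, from 1 count in Control 3, and thresholds of 1 or 10 CPM gave the same classes. Because the same libraries supplied both the classes and the other genes, adjusted p-values below say how firmly a gene goes with this split and do not test a labelled comparison.

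Total counts ran from 6657233 to 8424316 in Hoxb13-positive tissue and from 4598706 to 8356918 in other tissue. The pre-ribosomal transcript Rn45s took 24.2 to 43.0% of the counts in Hoxb13-positive tissue, most in EtOH 1, and 18.3 to 23.9% in other tissue. Counts were found for 15760 to 16207 genes per library in Hoxb13-positive tissue and for 15363 to 16066 in other tissue. No library repeated another: in all 13 pairs within a class the counts differed, with a chi-square of 11.98 to 85.8 per degree of freedom over genes with at least 20 counts. Colon identity held in both classes. The colonocyte genes Car1 and Slc26a3 were at 354 CPM or more and 147 CPM or more in every library. From here on, levels are CPM scaled by TMM factors, a correction for differences in library composition.

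The classes differed broadly. Of 13110 genes tested besides Hoxb13, 1403 (10.7%) were called, that is, had an adjusted p under 0.05 in edgeR's quasi-likelihood test with treatment as a covariate. In Hoxb13-positive tissue 496 genes (3.78%) were higher and 907 (6.92%) lower. Every count of called list members below stands against these shares. Class ranges lay apart for 2363 genes (18.0%), with 961 (7.33%) higher and 1402 (10.7%) lower, and 1224 of the called genes were among them. The median log2 fold change over all genes tested was 0.03. Differences of at least 2 on the log2 scale were found in 95 genes called higher and 171 called lower. The count depended on single libraries: it was 705 without Control 1, 755 without EtOH 3, 833 without Control 3, 870 without EtOH 4, 912 without EtOH 1, 923 without Control 4 and 2621 without EtOH 2. Within ethanol libraries alone 180 genes were called and within control libraries alone 2021, with control tissue supplying a single Hoxb13-positive library. In bulk tissue, fewer cells of a type and less RNA per cell cannot be told apart.

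**Figure D1:**
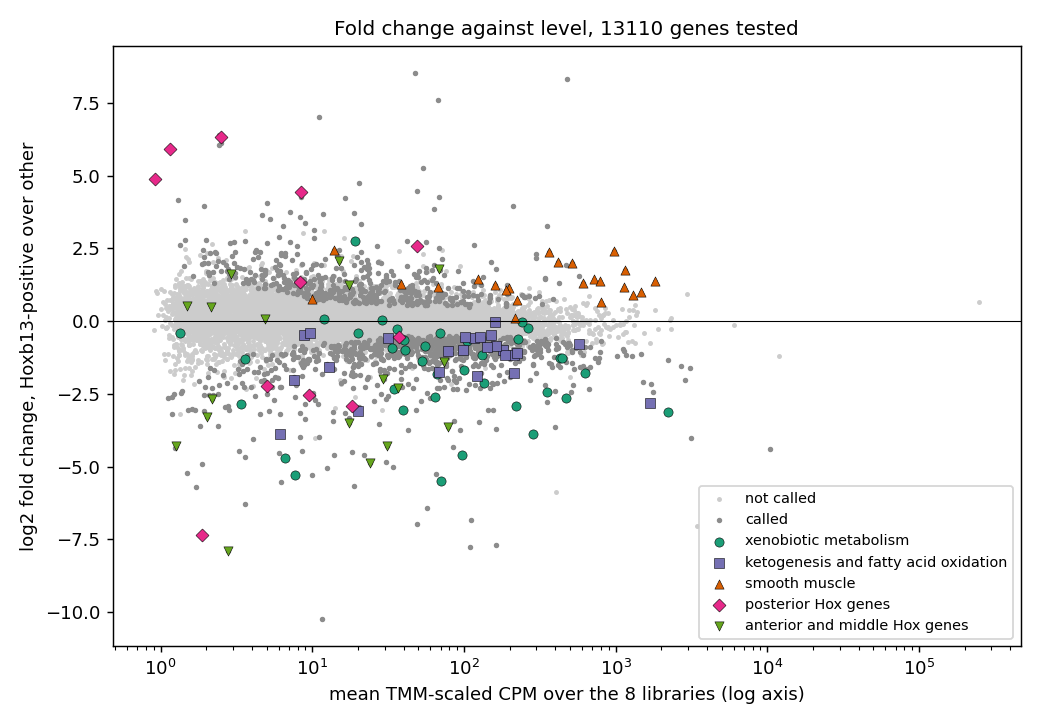
Log2 fold change, Hoxb13-positive over other colon tissue, against the mean level over the 8 libraries (log axis) for the 13110 genes tested. Dark grey points are the 1403 genes called, and coloured symbols are 5 gene lists. Xenobiotic and fatty acid oxidation genes lie mostly below 0 and smooth muscle genes above it.

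Hox genes differed between the classes by cluster. In cluster A, 8 of 9 tested genes were higher in Hoxb13-positive tissue and none was lower. In cluster B, 6 of 8 tested genes besides Hoxb13 were lower and none was higher. Cluster C had 3 of 4 tested genes lower, and cluster D had 1 of 7 higher and 5 lower. The background over all genes was 3.78% higher and 6.92% lower. Of the posterior genes (numbers 9 to 13, with Evx1 beside cluster A), 6 of 11 tested were higher and 3 lower, with a median log2 fold change of 1.35 against 0.03 over all genes. Of the anterior and middle genes (numbers 1 to 8), 4 of 18 were higher and 11 lower, with a median of -2.13. Reads of overlapping genes of a cluster, such as Hoxd3 and Hoxd4, may be shared.

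Cluster A genes rose along most of the cluster. Hoxa9 was at 27.0, 13.1 and 22.3 CPM in EtOH 1, EtOH 2 and Control 1 of Hoxb13-positive tissue and at 0.714 to 1.26 CPM in the 5 other libraries. Its ranges lay far apart, with a log2 fold change of 4.45 ± 0.33 (SE, adjusted p = 4.06e-05). Hoxa10 was at 119.5, 89.95 and 92.0 CPM in Hoxb13-positive tissue and at 11.6 to 25.4 CPM in other tissue, a log2 fold change of 2.57 ± 0.27 (adjusted p = 0.000343). The middle genes of the cluster moved the same way and by less: Hoxa7 by 2.08 ± 0.32, Hoxa5 by 1.80 ± 0.28 and Hoxa3 by 1.26 ± 0.23 on the log2 scale, with the call of Hoxa3 lost without Control 1. Hoxa11 was the least firm of those called. It was at 16.03, 5.33 and 17.1 CPM in Hoxb13-positive tissue and at 3.49 to 7.84 CPM in other tissue, so EtOH 2 lay inside the other range. Its call (adjusted p = 0.0295) was lost when any of 7 libraries was left out and held only without EtOH 2. The antisense transcript Hoxa11as was even across the libraries of a class: it was at 122, 119 and 123 CPM in Hoxb13-positive tissue against 4.52 to 6.92 CPM in other tissue, a log2 fold change of 4.46 ± 0.18 (adjusted p = 4.37e-07, the smallest of the 13110). The strand setting of the counting is not stated in the labels, so reads of Hoxa11 and its antisense partner cannot be told apart.

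Genes of group 13, and Evx1, a homeobox gene next to Hoxa13, were close to absent from other tissue. Hoxd13 had 154 counts in Hoxb13-positive tissue (3.49, 8.94 and 7.39 CPM) and 2 counts in all of the other tissue, both in EtOH 3. That is a ratio of 105 with a 95% counting interval of 28.7 to 878. Hoxa13 had 54 counts in Hoxb13-positive tissue and 2 in other tissue, a ratio of 36.9 (9.74 to 313), and Evx1 had 69 in Hoxb13-positive tissue and 1 in other tissue, a ratio of 94.4 (16.4 to 3782). Every Hoxb13-positive library held counts of all 3 genes at 1.87 CPM or more, and no other library exceeded 0.279 CPM. Adjusted p-values were 0.000412 for Hoxd13, 0.00163 for Hoxa13 and 0.00062 for Evx1.

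Cluster B ran the other way around Hoxb13 itself. Hoxb8 was at 2.70, 0.577 and 0.844 CPM in EtOH 1, EtOH 2 and Control 1 and at 38.8, 36.7, 36.2, 36.9 and 38.4 CPM in EtOH 3, EtOH 4 and Control 2 to Control 4. The other libraries agreed closely among themselves (37.4 ± 1.15 CPM, SD, n = 5), and Hoxb13-positive tissue averaged 1.37 ± 1.16 CPM (SD, n = 3). The log2 fold change was -4.86 ± 0.38 (adjusted p = 5.23e-05). Hoxb7 fell by 4.28 ± 0.38 on the log2 scale, to 2.61 ± 1.79 CPM in Hoxb13-positive tissue, against 47.9 ± 10.1 CPM in other tissue. Hoxb9, the neighbour of Hoxb13 in the cluster, was at 26.5 to 33.7 CPM in Hoxb13-positive tissue and 34.8 to 48.5 CPM in other tissue and was not called (adjusted p = 0.0738). In cluster D, Hoxd4 fell by 3.50 ± 0.35 and Hoxd10 by 2.92 ± 0.61 on the log2 scale, the call of Hoxd10 being lost without Control 1. Hoxd10 varied within Hoxb13-positive tissue, with 0.635, 8.65 and 2.11 CPM in EtOH 1, EtOH 2 and Control 1, against 19.7 to 32.7 CPM in other tissue. Hoxd11 had the same shape (0.635, 7.50 and 0.739 CPM in Hoxb13-positive tissue, 7.37 to 15.7 CPM in other tissue) and just missed the threshold (adjusted p = 0.0505). In cluster C, Hoxc10 had no count in Hoxb13-positive tissue and 96 in other tissue. Against a floor of 3 counts over the class it was at least 23.4-fold lower.

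**Figure D2:**
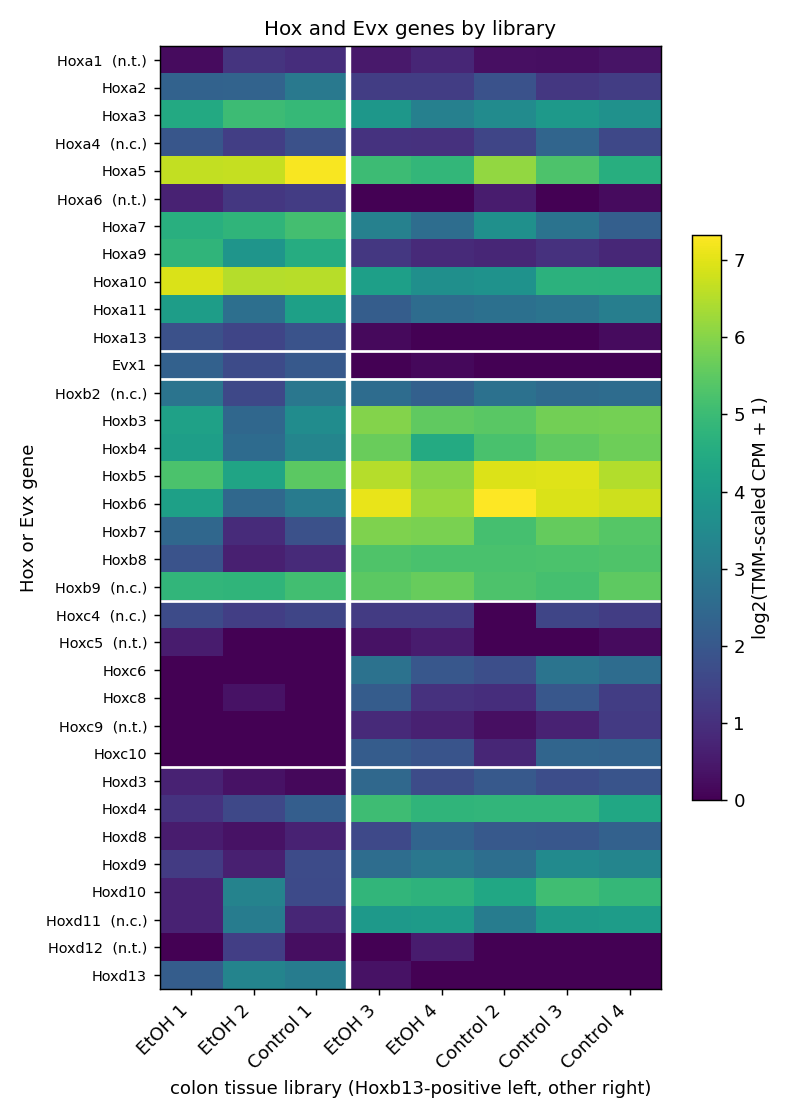
Levels of Hox and Evx genes, as log2(TMM-scaled CPM + 1), in each colon tissue library, with Hoxb13-positive libraries left of the white line and other libraries right of it. Genes with at least 10 counts are shown, ordered by cluster and number, without Hoxb13; n.c. marks genes not called and n.t. genes that did not pass the filter on low counts. Cluster A is brighter on the left, while Hoxb3 to Hoxb8, Hoxc6, Hoxc10 and Hoxd3 to Hoxd10 are brighter on the right.

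Promoter sequences show what stands before genes that went with the split, and RefSeq windows (GRCm38.p6, 250 bases before to 50 after a transcript start) are given for 3 of them. Capitals mark CAATAAA on either strand, a word that posterior Hox proteins are known to bind. Of the windows read gene by gene, only the 3 shown hold the word. Windows of Hoxd13, Hoxa9, Insl5, Tgm3, Mptx1, Slc51a, Slc51b, S100g, Nts and Fabp6 were read too and held none. Evx1 was found almost only in Hoxb13-positive tissue (chr6:52313248-52313547, plus strand), and the word lies 230 bases before its start. Hoxb8 was the cluster B gene with the largest fall (chr11:96281655-96281954, plus strand), with the word 120 bases before its start. Slc10a2, the bile acid transporter described below, was among the lowest genes (chr8:5105238-5105537, minus strand) and holds the word 175, 62 and 52 bases before its start.
Evx1: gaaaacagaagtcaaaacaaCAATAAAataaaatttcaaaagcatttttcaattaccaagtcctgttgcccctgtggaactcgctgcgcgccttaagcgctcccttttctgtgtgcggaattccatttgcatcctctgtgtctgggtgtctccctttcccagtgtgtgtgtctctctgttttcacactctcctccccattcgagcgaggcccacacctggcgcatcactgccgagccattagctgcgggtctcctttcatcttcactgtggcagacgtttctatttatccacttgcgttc
Hoxb8: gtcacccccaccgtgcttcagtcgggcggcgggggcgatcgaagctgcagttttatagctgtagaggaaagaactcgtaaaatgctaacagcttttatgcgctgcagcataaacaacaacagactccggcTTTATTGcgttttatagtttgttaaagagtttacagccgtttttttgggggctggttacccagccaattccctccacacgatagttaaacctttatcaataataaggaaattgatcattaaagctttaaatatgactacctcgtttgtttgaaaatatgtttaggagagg
Slc10a2: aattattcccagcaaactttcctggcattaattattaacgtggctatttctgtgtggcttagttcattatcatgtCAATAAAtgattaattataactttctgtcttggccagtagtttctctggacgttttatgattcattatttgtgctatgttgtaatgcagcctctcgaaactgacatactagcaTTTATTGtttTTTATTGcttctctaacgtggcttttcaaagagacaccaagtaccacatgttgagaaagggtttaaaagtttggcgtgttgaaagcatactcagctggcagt
The word stood in 3.68% of 353 promoters of genes called higher and 3.89% of 668 called lower, near the 3.12% of 9758 genes tested and 4.6% of all 32851 windows. A match is a description of letters and not a bound site.

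Among called genes that reached a mean of 5 CPM in the higher class and whose classes did not overlap, the 12 highest fold changes belonged to Tgm3, Mptx1, Sval1, Angptl7, Ano4, Hoxd13, Crisp3, Vsig1, Insl5, Atp12a, Hoxa11as and Hoxa9. Tgm3, a transglutaminase that cross-links proteins in surface epithelia, was at 37.0, 268 and 73.3 CPM in EtOH 1, EtOH 2 and Control 1 and at 0, 0, 0.238, 0.210 and 1.08 CPM in the 5 other libraries. Its log2 fold change was 8.52 ± 0.98 (adjusted p = 0.00153). Mptx1, a mucosal pentraxin, was at 282, 3354 and 151 CPM in Hoxb13-positive tissue and 0.838 to 3.38 CPM in other tissue. EtOH 2 was far above the remaining Hoxb13-positive libraries for both genes, and also for Atp12a, while the lowest of the 3 still exceeded all other tissue. Insl5, the peptide hormone of distal enteroendocrine cells, was more even. It was at 93.6, 105 and 213 CPM in EtOH 1, EtOH 2 and Control 1 and at 4.47, 4.74, 2.14, 2.31 and 3.38 CPM in other tissue, a log2 fold change of 5.26 ± 0.34 (adjusted p = 4.06e-05). Angptl7, a secreted angiopoietin-like protein, was at 38.7, 9.37 and 39.8 CPM in Hoxb13-positive tissue and at 0 to 0.952 CPM in other tissue. Sval1 was at 27.8, 297 and 204 CPM in Hoxb13-positive tissue and at 0 to 4.04 CPM in other tissue, and its call was lost without Control 1 (adjusted p = 0.0546). For 3 more genes the other class held only 2 counts each. The ratio was 101 for Ano4, an anoctamin, 95.1 for Crisp3, a cysteine-rich secretory protein, and 93.7 for Vsig1, an adhesion protein of the stomach lining. Their 95% counting intervals were 27.35 to 838, 25.8 to 793 and 25.5 to 782.

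The 12 lowest were Cyp3a44, S100g, Osr2, Slc10a2, Slc51a, Nts, Ugt8a, Saa3, Ido1, Cyp4b1, Cyp3a25 and Abca12. Osr2, a zinc-finger transcription factor of the odd-skipped family, was at 1.59, 0.433 and 1.69 CPM in EtOH 1, EtOH 2 and Control 1 and at 311, 286, 262, 238 and 197 CPM in EtOH 3, EtOH 4 and Control 2 to Control 4. Its log2 fold change was -7.68 ± 0.36 (adjusted p = 1.44e-06). S100g, the calcium-binding protein calbindin-D9k, was at 0.476, 1.01 and 0.950 CPM in Hoxb13-positive tissue and at 117 to 315 CPM in other tissue, a log2 fold change of -7.76 ± 0.49. Nts, which encodes the gut peptide neurotensin, was at 2.70, 0 and 0.844 CPM in Hoxb13-positive tissue and 58.5 to 125 CPM in other tissue. For all 3 genes even the lowest other library lay far above the highest Hoxb13-positive one. Cyp3a44, a cytochrome P450, had no count in Hoxb13-positive tissue and 627 in other tissue, so it was at least 153-fold lower against a floor of 3 counts over the class. It varied widely in other tissue, from 2.62 CPM in Control 2 to 41.3 CPM in EtOH 3, and its call was lost without Control 1 or without EtOH 2. Saa3, an acute-phase protein of epithelium, and Ido1, which degrades tryptophan, averaged 0.501 ± 0.535 and 0.171 ± 0.035 CPM in Hoxb13-positive tissue (SD, n = 3). In other tissue they averaged 29.6 ± 15.8 and 9.87 ± 3.87 CPM (SD, n = 5). Ugt8a, a sphingolipid galactosyltransferase, had 1 count in Hoxb13-positive tissue and 165 in other tissue, a ratio of 121 (95% counting interval 21.3 to 4791).

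**Figure D3:**
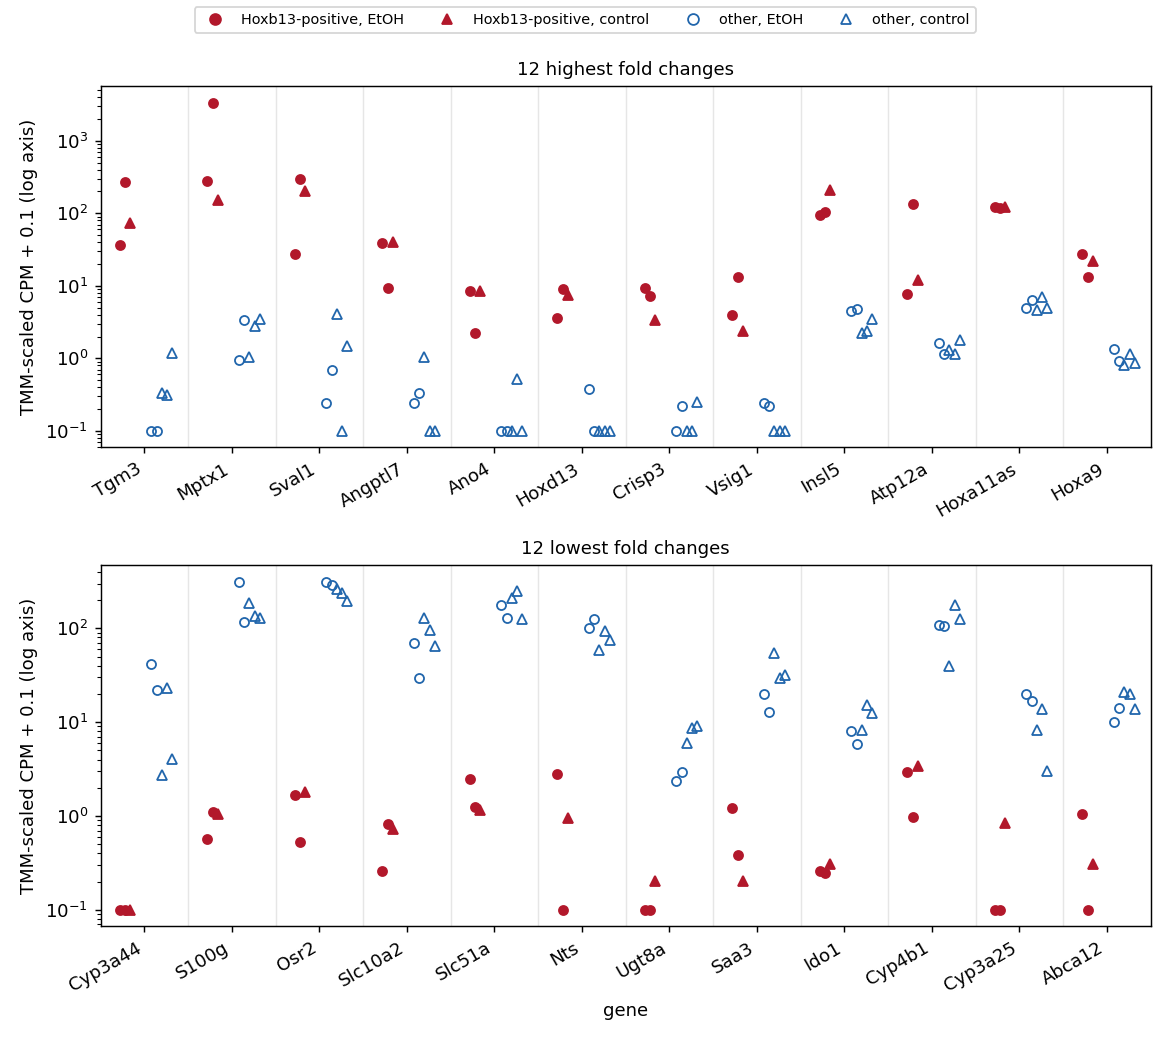
TMM-scaled CPM plus 0.1 (log axis) in each library for the 12 highest and 12 lowest fold changes, with Hoxb13-positive libraries in filled red left of other libraries in open blue; circles are ethanol and triangles control libraries. For every gene the classes do not overlap, which was a condition of the choice. Among the 12 highest, EtOH 2 is the top circle for Tgm3, Mptx1, Sval1, Hoxd13, Vsig1, Insl5 and Atp12a.

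Most factors that pattern the gut segments were not called. Of 24 tested, 1 was higher and 5 lower in Hoxb13-positive tissue, with a median of -0.14, and without EtOH 2 the counts were 6 and 9. The shares with all libraries were 4.17% higher and 20.8% lower, against 3.78% and 6.92% over all genes. Besides Osr2, Isx, an intestinal homeobox factor that restrains vitamin A uptake, was at 24.6, 21.6 and 29.3 CPM in Hoxb13-positive tissue and 123 to 290 CPM in other tissue (log2 -3.05 ± 0.29, adjusted p = 0.000163). Tbx3, a T-box factor, was at 12.1, 5.48 and 15.6 CPM in Hoxb13-positive tissue and at 51.4 to 59.9 CPM in other tissue (log2 -2.27 ± 0.26). Cdx2, the master factor of intestinal epithelium, averaged 60.7 ± 4.30 CPM in Hoxb13-positive tissue and 122 ± 23.9 CPM in other tissue (log2 -1.04 ± 0.19, adjusted p = 0.00599). The factor that rose was Foxa2, needed for secretory cells, at 52.5, 98.9 and 52.7 CPM in Hoxb13-positive tissue against 20.6 to 35.9 CPM in other tissue (log2 1.14 ± 0.21). Foxa2 missed the threshold without Control 1 (adjusted p = 0.0633).

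Of 17 tested genes linked to the proximal colon, caecum or ileum, 6 were lower and 2 higher, with a median of -0.65. Several of those that fell handle bile acids. Slc10a2, which takes bile acids up from the lumen, was at 0.159, 0.721 and 0.633 CPM in EtOH 1, EtOH 2 and Control 1 and at 69.3, 29.6, 130, 95.4 and 65.0 CPM in EtOH 3, EtOH 4 and Control 2 to Control 4 (log2 -6.96 ± 0.53, adjusted p = 7.97e-05). Slc51a, which exports them to the blood, was at 2.38, 1.15 and 1.06 CPM in Hoxb13-positive tissue and at 125 to 250 CPM in other tissue (log2 -6.84 ± 0.41, adjusted p = 2.52e-05). Nr1h4, the nuclear receptor for bile acids, was at 25.1, 23.9 and 23.1 CPM in Hoxb13-positive tissue and 82.0 to 132 CPM in other tissue (log2 -2.01 ± 0.20, adjusted p = 0.000199). All 3 genes stood apart between the classes. Fabp6, the bile acid binding protein of the ileum, overlapped and was not called, with 2.54 to 6.34 CPM in Hoxb13-positive tissue and 4.30 to 21.2 CPM in other tissue (adjusted p = 0.137). The higher members of the list were Mptx1 and Aqp4, a water channel, which went against the name of the list. Among 19 tested markers of small intestinal enterocytes, 3 (15.8%) were lower and 1 (5.26%) was higher, against 6.92% and 3.78% over all genes. The lower count was 7 without EtOH 2 and 5 without EtOH 1. Slc15a1, the peptide transporter, was the one that rose, with 21.3, 25.5 and 18.6 CPM in Hoxb13-positive tissue against 1.54 to 4.76 CPM in other tissue (log2 2.85 ± 0.32, adjusted p = 0.000359).

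Genes of xenobiotic metabolism fell as a group. Of 37 tested genes, 24 were lower and 1 higher in Hoxb13-positive tissue, with a median log2 fold change of -1.29 against 0.03 over all genes. Summed over the list, levels were 3013, 2806 and 2102 CPM in EtOH 1, EtOH 2 and Control 1 and 7827 to 11080 CPM in the other libraries, so the classes lay apart by more than their own spread. The carboxylesterase Ces2a, which hydrolyses drug and lipid esters, was at 46.2, 37.3 and 47.8 CPM in Hoxb13-positive tissue and 244 to 382 CPM in other tissue (log2 -2.91 ± 0.22, adjusted p = 4.06e-05). Ces2c averaged 110 ± 16.1 CPM in Hoxb13-positive tissue and 684 ± 99.2 CPM in other tissue (log2 -2.65 ± 0.21). Of the cytochromes P450, Cyp3a13 averaged 41.4 ± 5.91 CPM in Hoxb13-positive tissue and 192 ± 33.5 CPM in other tissue (log2 -2.14 ± 0.20). Cyp4b1 averaged 2.33 ± 1.29 CPM in Hoxb13-positive tissue and 111 ± 49.2 CPM in other tissue (log2 -5.50 ± 0.60). The exception was Cyp2c68, at 30.5, 86.4 and 13.0 CPM in Hoxb13-positive tissue and at 1.90 to 7.76 CPM in other tissue (log2 2.75 ± 0.59, adjusted p = 0.0200), a call that was lost without EtOH 3 or without EtOH 4.

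Enzymes that burn fatty acids and make ketone bodies fell together. Of 25 tested, 16 were lower and none higher, all 25 had a negative fold change, and the median was -0.997. Ppara, the nuclear receptor that drives these genes in liver, was at 24.4, 31.3 and 28.7 CPM in EtOH 1, EtOH 2 and Control 1 and at 106, 85.9, 71.6, 108 and 95.6 CPM in the other libraries (log2 -1.74 ± 0.19, adjusted p = 0.000338). Its classes lay well apart, and it kept its call whichever library was left out. Summed over the list, levels were 2377, 2631 and 1951 CPM in EtOH 1, EtOH 2 and Control 1 and 5632 to 6816 CPM in the other libraries. Leaving out 1 library at a time, 12 to 22 members of this list were called lower and 16 to 26 of the xenobiotic list; the lowest counts were those without Control 1. Cholesterol and fatty acid synthesis did not follow: 1 of 25 tested was higher (Scd2) and 1 lower (Elovl6), calls that held in 3 and 2 of 8 fits with a library left out.

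Transporters of the absorptive surface changed in both directions. Of 20 tested genes for chloride, bicarbonate, water and short-chain fatty acids, 4 were higher and 4 lower. Car1, the carbonic anhydrase of colonocytes, was at 1305, 354 and 556 CPM in Hoxb13-positive tissue and at 12350 to 23260 CPM in other tissue (log2 -4.38 ± 0.52, adjusted p = 0.000691). Slc9a2, a sodium-proton exchanger, averaged 13.4 ± 1.45 CPM in Hoxb13-positive tissue and 43.1 ± 8.75 CPM in other tissue (log2 -1.62 ± 0.21). Higher levels were found for Aqp4, at 491, 703 and 282 CPM in Hoxb13-positive tissue against 19.3 to 82.1 CPM in other tissue (log2 3.95 ± 0.56, adjusted p = 0.00321). Ano1, a calcium-activated chloride channel that also marks pacemaker cells, was at 131, 127 and 126 CPM in Hoxb13-positive tissue and 31.7 to 58.4 CPM in other tissue (log2 1.60 ± 0.20). Slc26a3, the chloride-bicarbonate exchanger, was at 594, 488 and 526 CPM in Hoxb13-positive tissue and at 147, 165, 183, 172 and 441 CPM in the other libraries. Its call (adjusted p = 0.0241) was lost without Control 1, EtOH 1, EtOH 3 or EtOH 4, and Control 4 stood well above the rest of its class.

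Of 13 tested genes of aldosterone-linked sodium and potassium transport, 2 (15.4%) were higher and 1 (7.69%) lower, against 3.78% and 6.92% over all genes. Atp12a, the colonic proton-potassium pump, was at 7.62, 136 and 11.9 CPM in EtOH 1, EtOH 2 and Control 1 and at 1.05 to 1.69 CPM in other tissue (log2 4.74 ± 1.02, adjusted p = 0.0245). EtOH 2 supplied most of its mean, and the call was lost without Control 1 or EtOH 4. Scnn1b, a subunit of the epithelial sodium channel, went the other way with 1.43, 1.73 and 2.22 CPM in Hoxb13-positive tissue against 4.82 to 10.5 CPM in other tissue (log2 -2.01 ± 0.36, adjusted p = 0.00562). Tmprss2, a membrane protease, was called higher (adjusted p = 0.0333), but the call held in only 1 of 8 fits with a library left out. Among 20 tested surface colonocyte markers 9 were lower and 1 was higher, with a median of -1.07. Ceacam1, an adhesion molecule, averaged 937 ± 186 CPM in Hoxb13-positive tissue and 4049 ± 931 CPM in other tissue (log2 -2.03 ± 0.25). Cdhr5, a cadherin of the brush border, averaged 268 ± 38.5 CPM in Hoxb13-positive tissue and 877 ± 163 CPM in other tissue (log2 -1.65 ± 0.21). Claudins and junction genes had 4 of 22 tested lower and none higher, and 10 lower and 2 higher without EtOH 2. Claudins form the strands of tight junctions, and Cldn4 (log2 -1.65 ± 0.30), Cldn23 (log2 -1.26 ± 0.22) and Cldn3 (log2 -1.12 ± 0.20) were among the lower ones.

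Of 22 tested goblet cell and mucus genes, 7 were lower and 2 higher, with a median of -0.50. Without EtOH 1 the lower count was 4, and without Control 1 none was higher. B4galnt2, which builds a blood-group sugar on mucosal glycans, was at 428, 459 and 547 CPM in Hoxb13-positive tissue and 1642 to 2625 CPM in other tissue (log2 -2.08 ± 0.21, adjusted p = 0.000177). Zg16, a lectin of the mucus layer, was at 139, 438 and 838 CPM in Hoxb13-positive tissue and at 1853 to 3196 CPM in other tissue (log2 -2.42 ± 0.47). The ones that rose were Clca1 (log2 1.85 ± 0.35, adjusted p = 0.0636 without Control 1) and B3gnt7, which extends keratan sulfate chains. Clca1 was low in every library, at 4.61 to 6.96 CPM in Hoxb13-positive tissue and 1.185 to 2.94 CPM in other tissue. It was listed by symbol, and which gene of the Clca family the symbol names here was not checked. B3gnt7 was at 30.3, 332 and 140 CPM in Hoxb13-positive tissue and at 2.15 to 12.6 CPM in other tissue (log2 4.28 ± 0.75, adjusted p = 0.0108), and lost its call without Control 1, EtOH 2 or EtOH 4. Muc2, the main mucin, was not called (adjusted p = 0.431), with 3344, 1887 and 13540 CPM in Hoxb13-positive tissue and 7634 to 39140 CPM in other tissue.

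Of 21 tested enteroendocrine genes, 6 were lower and 2 higher, and hormones were among both. Without EtOH 2, 5 were higher. Beside the higher Insl5 and lower Nts, Sct, which encodes secretin, was at 5.71, 1.73 and 6.75 CPM in Hoxb13-positive tissue and at 40.4 to 83.4 CPM in other tissue (log2 -3.76 ± 0.42, adjusted p = 0.000705). Tph1, the enzyme for gut serotonin, averaged 7.55 ± 3.93 CPM in Hoxb13-positive tissue and 45.9 ± 16.8 CPM in other tissue (log2 -2.58 ± 0.44). The summed level of the list did not part the classes, at 776 to 1550 CPM in Hoxb13-positive tissue and 944 to 1514 CPM in other tissue. Isl1, a factor of hormone-producing cells, was called higher (adjusted p = 0.0360) but held in only 2 of 8 fits with a library left out.

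Most crypt genes were not called. Of 20 tested stem cell and Wnt target genes, 3 (15%) were higher and none lower, against 3.78% and 6.92% over all genes. The 3 were Smoc2, a matrix protein of crypt-base cells, Lrig1, a receptor that restrains growth factor signals, and Aqp4. Smoc2 was at 93.6, 89.2 and 68.8 CPM in Hoxb13-positive tissue and at 18.5 to 35.3 CPM in other tissue (log2 1.53 ± 0.17, adjusted p = 0.000381). Lrig1 was at 71.7, 80.4 and 59.4 CPM in Hoxb13-positive tissue and at 19.5 to 34.7 CPM in other tissue (log2 1.15 ± 0.20). Lgr5, the best-known stem cell marker, was not called, with 20.95, 26.4 and 13.5 CPM in Hoxb13-positive tissue and 7.61 to 16.3 CPM in other tissue (adjusted p = 0.155). None of 26 tested proliferation genes was called by edgeR, 1 had an unadjusted p under 0.05, and DESeq2 called 1 and limma-voom 0. The fold change was positive for 25 of the 26, with a median log2 of 0.417 against 0.03 over all genes. Their summed levels overlapped, at 1054 to 1919 CPM in Hoxb13-positive tissue and 779 to 1536 CPM in other tissue. Of 16 tested fetal-like and regenerative genes 3 (18.8%) were higher and 1 (6.25%) lower. Anxa3 was at 123, 151 and 103 CPM in Hoxb13-positive tissue and 27.2 to 47.8 CPM in other tissue (log2 1.77 ± 0.22), and Anxa1 at 122, 89.8 and 95.6 CPM in Hoxb13-positive tissue and 20.7 to 56.6 CPM in other tissue (log2 1.77 ± 0.27). Both genes encode annexins, which bind membranes in the presence of calcium.

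**Figure D4:**
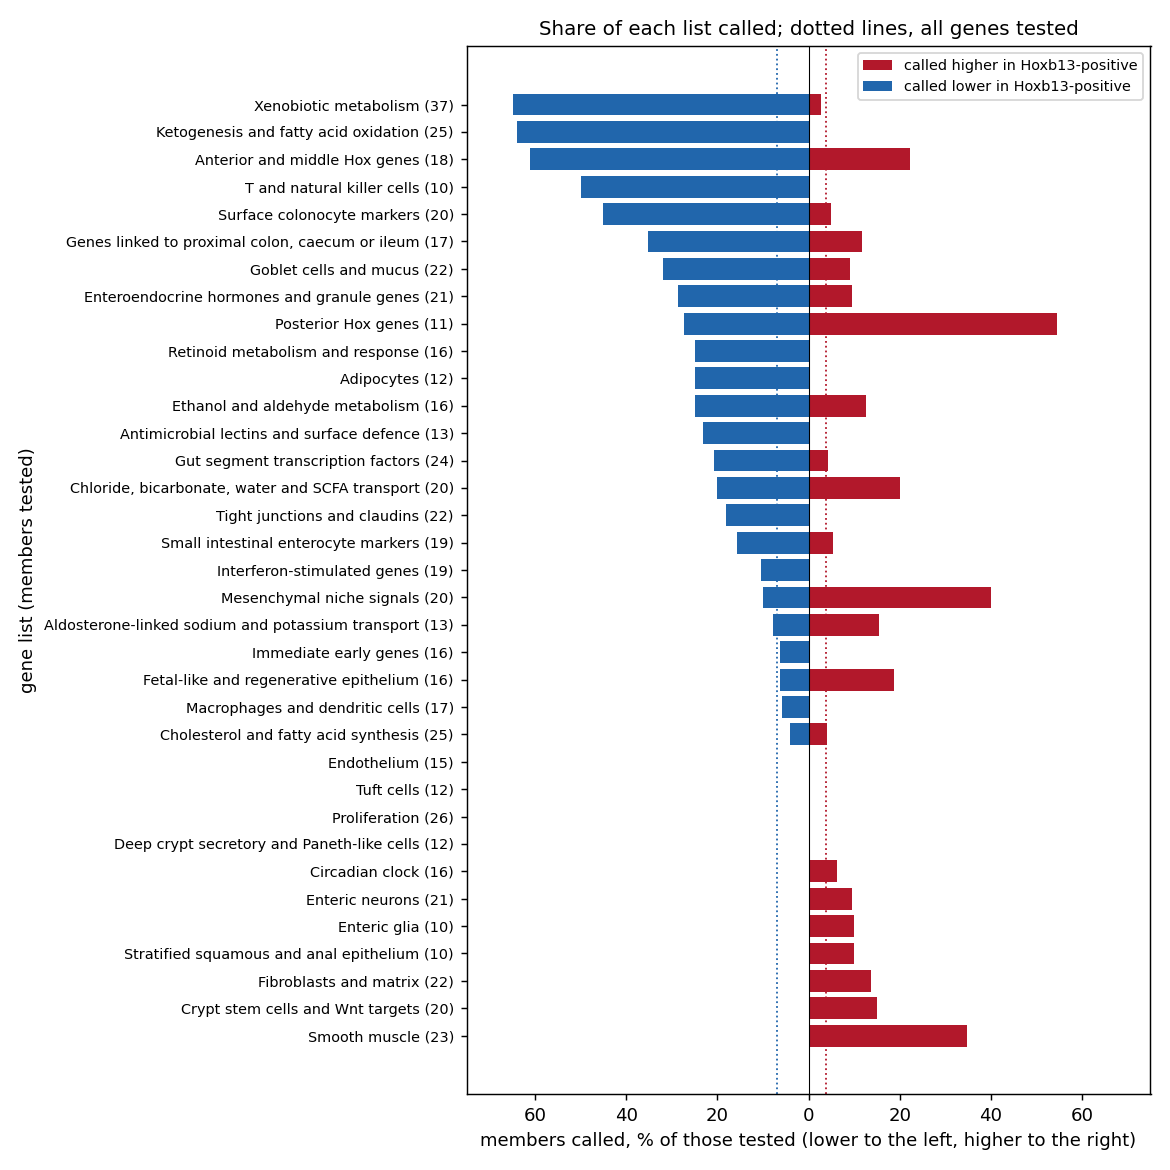
Share of the tested members of each gene list that were called higher (red, right) or lower (blue, left) in Hoxb13-positive tissue, for lists with at least 10 members tested (number in parentheses). Dotted lines mark the shares over all genes tested, 3.78% higher and 6.92% lower. Xenobiotic metabolism and ketogenesis reach 64.9% and 64% lower, and mesenchymal niche signals and smooth muscle 40% and 34.8% higher.

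Genes of the bowel wall were higher in 2 of the 3 Hoxb13-positive libraries. Summed over 23 smooth muscle genes, levels were 32780 CPM in EtOH 1, 6936 CPM in EtOH 2 and 24060 CPM in Control 1, against 7457 to 9600 CPM in other tissue, so EtOH 2 lay below every other library. Of these genes 8 were higher and none lower, with a median of 1.27. Leaving out EtOH 2 raised the count to 22 of 23, and leaving out Control 1 lowered it to 0. Synm, the muscle filament protein synemin, was at 1146, 210 and 823 CPM in EtOH 1, EtOH 2 and Control 1 and at 121 to 177 CPM in other tissue (log2 2.38 ± 0.43, adjusted p = 0.00904). Cnn1, the contractile regulator calponin, was at 3027, 453 and 2352 CPM in Hoxb13-positive tissue and 311 to 476 CPM in other tissue, an overlap through EtOH 2 (log2 2.40 ± 0.47). Against 3.78% higher over all genes, fibroblast and matrix genes had 3 of 22 (13.6%) higher and enteric neuron genes 2 of 21 (9.52%). Both lists had the same shape as smooth muscle. Their counts were 16 and 10 without EtOH 2 and both 0 without Control 1, and the neuron count was also 0 without EtOH 1. Their sums were 829 and 448 CPM in EtOH 2 and at least 3017 and 1048 CPM in EtOH 1 and Control 1, against 1175 to 1739 and 511 to 803 CPM in other tissue. Vip, an inhibitory neuropeptide of enteric neurons, was at 96.8, 43.3 and 93.7 CPM in Hoxb13-positive tissue and 13.0 to 36.8 CPM in other tissue (log2 1.88 ± 0.37, adjusted p = 0.0134), a call lost without Control 1 or EtOH 1. The part of wall content in the other results was not tested.

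**Figure D5:**
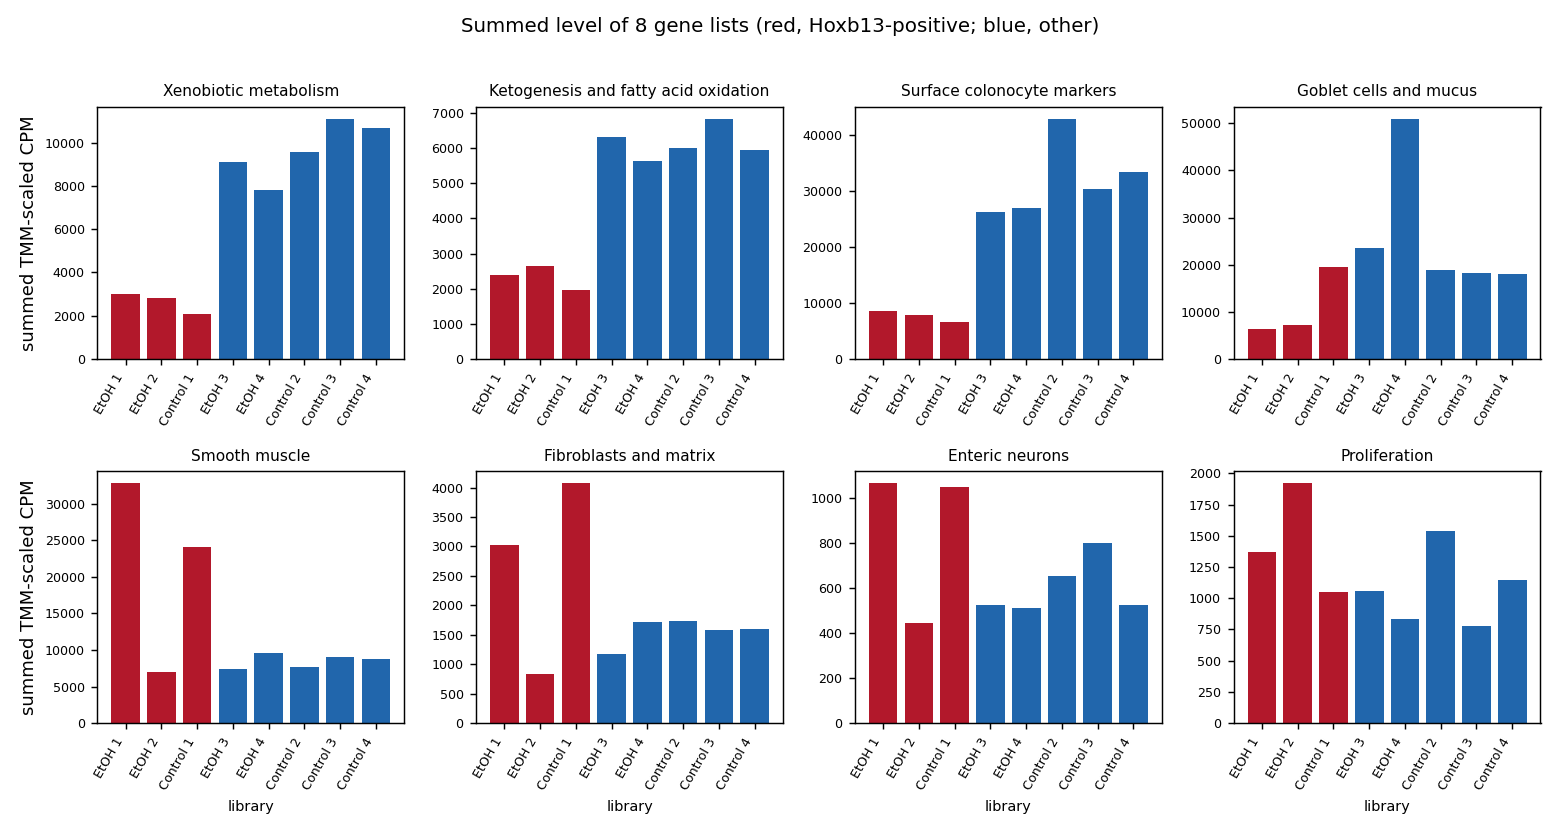
Summed TMM-scaled CPM of 8 gene lists in each library, Hoxb13-positive in red on the left and other in blue on the right; bars start at 0. The first 3 panels part the classes in every library, while smooth muscle, fibroblast and neuron sums are high in EtOH 1 and Control 1 and low in EtOH 2.

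Signals from the mesenchyme that feed the crypt were among the lists with the largest share called higher. Of 20 tested, 8 were higher and 2 lower, with a median of 1.002. Grem1, an inhibitor of bone morphogenetic proteins, was at 28.4, 13.4 and 41.3 CPM in EtOH 1, EtOH 2 and Control 1 and at 0.698 to 3.67 CPM in other tissue (log2 3.68 ± 0.43, adjusted p = 0.000697). Rspo3, which strengthens Wnt signalling, was at 18.7, 4.61 and 13.5 CPM in Hoxb13-positive tissue and at 1.43 to 3.995 CPM in other tissue (log2 2.32 ± 0.46). Sfrp4, a secreted Wnt antagonist, was at 5.24, 1.87 and 2.64 CPM in Hoxb13-positive tissue and at 0 to 0.559 CPM in other tissue (log2 4.15 ± 0.74). EtOH 2 was again the lowest Hoxb13-positive library for all 3 genes, yet it stayed above all other tissue. Rspo3 and Sfrp4 lost their calls without Control 1, when Grem1 was the only member of the list called higher. The ligands Bmp3 and Wnt5a went down, Bmp3 to 21.02 ± 5.09 CPM in Hoxb13-positive tissue, against 62.7 ± 15.6 CPM in other tissue (log2 -1.53 ± 0.25), and Wnt5a by 1.36 ± 0.28 on the log2 scale.

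Immune and defence genes that were called were lower in Hoxb13-positive tissue. Of 10 tested T and natural killer cell genes 5 were lower and none higher, with a median of -1.97. That count was 2 without Control 3 or EtOH 4, 3 without Control 4, EtOH 1 or EtOH 3, and 7 without EtOH 2. Cd3e, a chain of the T cell receptor complex, had 2 counts in Hoxb13-positive tissue and 62 in other tissue, a ratio of 22.7 (95% counting interval 6.01 to 191). Gzma, a cytotoxic granule protease, had 1 count in Hoxb13-positive tissue and 96 in other tissue, a ratio of 70.2 (12.3 to 2800). The sum over the list was low in both classes, at 6.98 to 23.2 CPM in Hoxb13-positive tissue and 23.6 to 65.0 CPM in other tissue, so these calls rest on few reads. B and plasma cell genes had none of 9 called by edgeR, 3 with an unadjusted p under 0.05, and none by DESeq2 or limma-voom. Of 13 tested surface defence genes 3 (23.1%) were lower, against 6.92% over all genes. Among them Lypd8, which keeps bacteria off the colon surface, was at 1250, 1854 and 1032 CPM in Hoxb13-positive tissue and 3385 to 5133 CPM in other tissue (log2 -1.61 ± 0.29). Irf7, a regulator of interferon responses, was at 29.8, 15.1 and 43.4 CPM in Hoxb13-positive tissue and 90.2 to 184 CPM in other tissue (log2 -1.96 ± 0.25, adjusted p = 0.000799). Of 12 tested adipocyte genes 3 (25%) were lower, against 6.92% over all genes, and 1 without Control 1. Cidec, a lipid droplet protein, fell by 3.12 ± 0.77 and Lpl, a lipase, by 1.72 ± 0.34 on the log2 scale, and both lost their calls without Control 1, Cidec also without EtOH 2 or EtOH 3. Pparg, which epithelium also expresses, averaged 27.7 ± 1.86 CPM in Hoxb13-positive tissue and 68.0 ± 11.2 CPM in other tissue (log2 -1.24 ± 0.18) and kept its call throughout.

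Markers of tissues next to the bowel were read as well. Of 10 tested markers of stratified squamous epithelium, which lines the anal canal, 1 (10%) was higher and none lower, against 3.78% and 6.92% over all genes. Krt17, a keratin of such epithelium, was at 18.6, 2.60 and 11.4 CPM in Hoxb13-positive tissue and 0.592 to 1.90 CPM in other tissue (log2 3.63 ± 0.62, adjusted p = 0.00534), and kept its call whichever library was left out. Krt14, a basal keratin that did not pass the filter, had 30 counts in Hoxb13-positive tissue (1.16 to 1.59 CPM) and 10 in other tissue (0.119 to 0.461 CPM). Krt5 had 3 counts in each class, Krt13 had none in any library, and Trp63 had none in Hoxb13-positive tissue and 4 in other tissue. The summed level of the 30 markers overlapped, at 623 to 946 CPM in Hoxb13-positive tissue and 842 to 973 CPM in other tissue. Of these markers 17 stayed under 1 CPM in every library, 5 of them without a count. The sum rests on the remaining members, whose cells of origin were not tested, so its overlap decides nothing about squamous epithelium. Of 4 tested genes listed for prostate, seminal vesicle and urothelium, 1 was higher and 2 lower. Foxq1 was the higher one (log2 1.45 ± 0.39, adjusted p = 0.0404), a call that held in 1 of 8 fits with a library left out, and Krt7 and Upk1a were lower. Colon organoids, grown from crypt epithelium, held Foxq1 at 164 to 665 CPM of counts outside Rn45s and Krt7 at 685 to 2380 CPM. Foxq1 and Krt7 are therefore not particular to those organs here. Upk1a was at 0 to 9.85 CPM in the organoids. Pbsn, a prostate secretory protein, had no count in any library. The part of these tissues in the results was not tested.

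Some enzymes that handle ethanol and its products differed between the classes too. Of 16 tested, 2 (12.5%) were higher and 4 (25%) lower, against 3.78% and 6.92% over all genes, with a median of -0.42. The lower count was 8 without EtOH 2 and 2 without Control 1. Adh1, the main alcohol dehydrogenase, was at 270, 1227 and 324 CPM in EtOH 1, EtOH 2 and Control 1 and at 139, 133, 96.6, 125 and 76.4 CPM in EtOH 3, EtOH 4 and Control 2 to Control 4 (log2 2.15 ± 0.43, adjusted p = 0.0143). The call was lost without Control 1 or EtOH 4. Aldh1a1, which oxidises retinal and other aldehydes, was at 130, 58.2 and 114 CPM in Hoxb13-positive tissue and 321 to 749 CPM in other tissue (log2 -2.39 ± 0.32, adjusted p = 0.00125). Aldh1a3 averaged 3.93 ± 0.719 CPM in Hoxb13-positive tissue and 11.54 ± 1.26 CPM in other tissue (log2 -1.58 ± 0.25).

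Ethanol itself gave no call in colon tissue. With the class as a covariate, ethanol against control called 0 of 13110 genes (0%) in edgeR, with 1067 unadjusted p-values under 0.05 and a smallest adjusted p of 0.0928; limma-voom called 0 and DESeq2 13. Without the class it also called 0, with 725 unadjusted p-values under 0.05. The biological coefficient of variation, a measure of spread between replicates, was 0.247 with class and treatment in the model and 0.335 with treatment alone. No gene was called for a difference of the class effect between ethanol and control libraries (0 of 13110, 1043 unadjusted p-values under 0.05, smallest adjusted p 0.19), and limma-voom also called 0. That test rests on a single Hoxb13-positive control library.

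Colon organoids, cultures of crypt epithelium, did not repeat the split as a whole. Hoxb13 had 31 counts in 1 control organoid library (Control Colon Organoid 2) and none in the other control library or in both ethanol libraries. Of the 12 highest genes, 3 to 5 had counts in an organoid library, and of the 12 lowest 4 to 10. The organoid library with Hoxb13 had the fewest counts outside Rn45s of the colon organoids (818240). It had 767 counts of Insl5, 73 of Aqp4 and 64 of Mptx1, and no count of Osr2, Slc10a2 or Hoxb6. Against the tissue split, it had 69 counts of Cyp4b1, 40 of Hoxb7, 27 of Nts and 20 of Hoxb8. It had none of Hoxa9, Hoxa11as, Hoxd13, Tgm3 or Sval1. Of the 12 highest genes 3 had counts in it, and of the 12 lowest 4. Insl5 also had 300 and 299 counts in the ethanol organoid libraries and 144 in Control Colon Organoid 1. The 2 ethanol organoid libraries had 297 and 219 counts of Osr2 and 197 and 82 of Slc10a2, and Control Colon Organoid 1 had 214 and 20. In jejunum tissue, Hoxb13 had 6 counts in 1 ethanol library, 7 in 1 control library and none in the remaining 5.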

How the data were processed

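RNA of 8 mouse colon tissue libraries was read from their 3' ends (QuantSeq kit). The authors deposited unnormalised gene-level counts, and also a normalised table whose scale the labels do not state, treated here as a score. The submitters' processing notes name Trimmomatic 0.32, BWA, HTSeq, limma, edgeR and the mm10 build, without roles or settings. All per-sample columns were mapped to samples (0 unused).

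Libraries were classed by Hoxb13 above 5 CPM. Counts were fitted in R 4.3.3 with edgeR 4.0.16: TMM factors, the tool's filter on low counts by class, and a robust quasi-likelihood F-test with treatment as covariate. P-values were adjusted by Benjamini-Hochberg over the 13110 genes tested together with Hoxb13, and an adjusted p under 0.05 was called. Hoxb13 was left out of all counts of calls. Each log2 standard error is the fold change divided by the square root of F. Adjusted p-values in the report are edgeR's quasi-likelihood values unless another tool is named. Of the 829 symbols on 42 gene lists, 808 were in the table and 630 were tested. Each list's called members were named up to 3 per direction by smallest p, with the 12 highest and 12 lowest genes, the posterior Hox genes and defining markers. The members and lists were chosen with earlier results of these data known. DESeq2 1.42.0, limma 3.58.1 (voom, and limma on the normalised table for its 9719 genes without blanks), other filters, scalings and left-out libraries were alternatives. Labels name separate samples, so p-values measure only the spread between these samples, and counting intervals (95%, exact) and the floor of 3 counts cover counting error only. Of the 23420 symbols counted, 21777 (93.0%) matched a GENCODE gene name. RefSeq promoters were matched by symbol and were found for 9758 of the 13110 genes tested. Some results are not reported here.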

Additional observations from a re-analysis of the deposited data

Results flagged for a closer look

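In 9 of the named genes, 1 of the 5 other colon tissue libraries stood far from the remaining 4. Chance gives such a gap in about 1 in 20 groups, and 121 named genes were looked at. No Hoxb13-positive value was examined in this way, since that class has 3 libraries.

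Several gaps rest on few counts. Tgm3 was at 1.08 CPM in Control 4, against 0 to 0.238 CPM in the rest of its class, and Angptl7 at 0.952 CPM in Control 2, against 0 to 0.237 CPM. Ano4 was at 0.420 CPM in Control 3, Hoxd13 at 0.279 CPM in EtOH 3 and Evx1 at 0.119 CPM in EtOH 4, each with no count in the rest of the class. Sfrp4 was at 0.559 CPM in EtOH 3, against 0 to 0.119 CPM.

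The remaining gaps were in genes with many counts. Slc26a3 was at 440.8 CPM in Control 4, near the Hoxb13-positive libraries, and at 147 to 183 CPM in the rest of its class. Hoxd11 was at 7.37 CPM in Control 2 and at 14.5 to 15.7 CPM in the rest. Lpl, a lipase of fat cells, was at 232 CPM in Control 3 and at 70.5 to 116 CPM in the rest, and the summed adipocyte list was also highest there, at 1196 CPM against 231 to 444 CPM.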

How the results depend on the processing

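The class comparison called 1403 genes in edgeR. It stayed within 1.5 times of that with DESeq2 (1937), limma-voom (1406), RLE size factors (1420), without Rn45s (1402), without a filter (1414), with a 5 CPM filter (1316), without the covariate (1417), within control libraries (2021) and with thresholds of 1 or 10 CPM (1403 each). It was 702 with 15 tissue libraries in 1 fit, 180 within ethanol libraries, 922 with log2 Hoxb13 in place of the class, and 881 with limma on the deposited normalised table. Leaving out 1 library gave 705 (without Control 1) to 2621 (without EtOH 2). The share of calls that were higher was 35.4%, but 45.5% within control libraries, 23.3% within ethanol libraries and 46.4% without EtOH 2. Except under the replicate block, every one of the 1403 calls that could be measured kept its sign in each of these settings.

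The replicate numbers were not taken to pair the libraries, since the deviations of same-numbered libraries from their treatment means did not correlate for every number. They correlated at 0.59, -0.028, 0.506 and 0.184, and at -0.129, 0.286, 0.068 and -0.252 once the class was removed, and 4 of 8 libraries correlated best with their own number. With the replicate block 232 genes were called, 1348 of the 1403 kept their sign, and the log2 fold change changed sign for Hoxd11 (0.080), Upk1a (0.033), Cnn1 (-0.016), Cryab (-0.20), Fn1 (-0.11), Fbln1 (-0.42) and Aldh1a2 (-1.49). The cause of these changes was not tested. Of 119 named genes called, 72 kept the call whichever library was left out.

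Ethanol against control called 0 genes, 13 with DESeq2, 5 without a filter, and 0 to 1 with a library left out (1 without EtOH 2). With 3 Hoxb13-positive libraries, of which 1 is a control, effects of ethanol within that class rest on 2 libraries against 1.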

Other observations

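Some members of the lists did not pass the filter on low counts, and 2 of them, chosen after their values were seen, are given here. Six2, a homeobox factor, had 119, 6 and 175 counts in EtOH 1, EtOH 2 and Control 1 and 2 counts in other tissue, both in Control 2. That is a ratio of 205 (95% counting interval 56.3 to 1703). Fxyd4, a sodium pump regulator of distal colon and kidney, had 108 counts in EtOH 2 and none in the other 7 colon tissue libraries.

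The antimicrobial lectins Reg3b and Reg3g, also chosen after their values were seen, were apart between the classes but not called. Reg3b was at 11.3, 2.45 and 2.74 CPM in EtOH 1, EtOH 2 and Control 1, and at 244, 308, 26580, 106 and 107 CPM in EtOH 3, EtOH 4 and Control 2 to Control 4 (adjusted p = 0.227). Reg3g was at 2.74 to 3.65 CPM in Hoxb13-positive tissue and at 18.9 to 77.7 CPM in other tissue except Control 2, where it was at 3071 CPM (adjusted p = 0.233). Control 2 exceeded the rest of its class by far for both genes.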
